A study of Homo sapiens with 6 samples.

Results

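The genes described here are 32 genes of cholesterol and fatty acid synthesis, chosen by name: 20 of the sterol branch and 12 of the fatty acid branch. A gene was measured where a probe set carried its symbol and no other, which held for 30 of them (18 sterol and 12 fatty acid genes) among 18377 genes in all. FDFT1, the squalene synthase, and HSD17B7, a sterol reductase, had no probe set of their own and were not analysed here. The rule used no measured value, and the list was drawn up with earlier results of the same arrays known.

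All RNA was from MCF10A-HER2/3 cells. Their parent, MCF10A, is a non-tumorigenic human mammary epithelial cell line that forms hollow spheres (acini) when grown in 3D culture. The cells carried a doxycycline-inducible lentiviral construct that expressed SHP2 miR1, SHP2 miR2 or CTRL miR, where SHP2 is the tyrosine phosphatase encoded by PTPN11 and the CTRL miR is the control. Cells of all 3 groups were kept in 3D culture for 15 days, in medium with EGF, insulin, hydrocortisone, cholera toxin and horse serum, and all received doxycycline, so the control arrays carry the drug and an expressed miR too. Each group had 2 arrays (Affymetrix HuGene-1_0-st-v1). The labels do not say whether the replicates were separate cultures or how many clones a line holds, so the spread behind every p-value is that between arrays and may be only technical.

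Cholesterol is built from acetyl-CoA through mevalonate, isoprenoids and squalene to lanosterol, which a chain of enzymes in the endoplasmic reticulum turns into cholesterol. Fatty acids are built from the same acetyl-CoA by acetyl-CoA carboxylase and fatty acid synthase, with NADPH from enzymes such as malic enzyme, and are then elongated and desaturated. Genes of both branches are classical targets of the SREBP transcription factors: SREBP-2, from SREBF2, acts mainly on sterol genes and SREBP-1, from SREBF1, mainly on fatty acid genes, and INSIG proteins hold both back in the endoplasmic reticulum when sterols are plentiful.

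PTPN11, the gene targeted by both SHP2 miRs, had log2 values of 6.04 and 5.71 in SHP2 miR1 cells and 6.90 and 7.28 in SHP2 miR2 cells, against 7.96 and 8.44 with CTRL miR. It was lower on all 4 SHP2 miR arrays, by 2.32 log2 units with SHP2 miR1 (SE 0.22, limma adjusted p = 0.000548) and by 1.11 with SHP2 miR2 (SE 0.22, limma adjusted p = 0.0813). The groups did not differ in PTPN11 alone. ERBB3, the receptor HER3 of the cell line's name, had 8.09 and 8.05 in SHP2 miR1 cells and 8.48 and 8.42 in SHP2 miR2 cells, against 9.67 and 9.54 in CTRL miR cells (average difference -1.35, SE 0.13, limma adjusted p = 0.000959; SHP2 miR2 alone -1.16, limma adjusted p = 0.0143). ERBB2, the receptor HER2, was lower with SHP2 miR1 (-0.64, SE 0.15, limma adjusted p = 0.0310) and differed by -0.12 with SHP2 miR2 (limma adjusted p = 0.819). The part of both receptors in the results was not tested. All values below are the deposited log2 probe set values, which are not comparable between genes, and every adjusted p is Benjamini-Hochberg adjusted over 18377 genes in a limma fit with a threshold of 0.05. Both comparisons against CTRL miR use the same 2 control arrays. Array medians over probe sets ran between 5.23 and 5.35. The mean of 8 measured mammary epithelial markers was 9.23 to 9.34 with SHP2 miR1, 9.23 with SHP2 miR2 and 8.92 to 8.99 with CTRL miR. The mean of 7 adipocyte markers, genes of another lipid-making cell type, was 4.74 to 4.86 with SHP2 miR1, 4.57 to 4.60 with SHP2 miR2 and 4.63 to 4.72 with CTRL miR, near the 40th percentile of probe sets (4.76), and none of the 7 passed the threshold. Of those 7, ADIPOQ and FABP4 were below that percentile. In the average comparison KRT14 of the epithelial markers was higher, 0 of 8 fibroblast and 0 of 5 leukocyte markers passed, and of 5 endothelial markers PECAM1 was higher and TEK lower. In the SHP2 miR1 comparison these 3 passed the same way, and the leukocyte markers CD14 (1.08, limma adjusted p = 0.0366) and CD68 (-0.71, limma adjusted p = 0.0272) and the endothelial marker KDR (0.60, limma adjusted p = 0.0418) passed too. CD14 differed by 0.96 in the average comparison (limma adjusted p = 0.0505). The part of these markers in the results was not tested. All samples were of the same mammary epithelial cell line, so the fibroblast, adipocyte, leukocyte and endothelial lists do not count cells of those types. In RNA from whole cultures, fewer epithelial cells in a given state and less RNA per cell cannot be told apart.

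With both SHP2 miRs averaged against CTRL miR, 4 of the 30 genes passed the threshold, where 4.20% of all genes did (2.67% lower and 1.53% higher). All 30 lay above the 40th percentile of probe sets, and of the 13047 genes above it 470 were lower and 247 higher. The sterol enzymes MSMO1 and SC5D and the malic enzyme ME1 were lower, and the phosphatidate phosphatase LPIN1 was higher. With SHP2 miR1 alone 6 of 30 passed, where 8.60% of all genes did (5.94% lower and 2.66% higher): the same 4 with HMGCS1 and STARD4, both lower. Of the 13047 genes above that percentile 1051 were lower and 402 higher with SHP2 miR1. With SHP2 miR2 alone 0 of 30 passed in the limma fit, where 0.370% of all genes did (0.180% lower and 0.190% higher), 8 had an unadjusted p under 0.05, beside 2025 of 18377 genes, and a mean-variance trend gave 3. The calls of both comparisons rest on few arrays: in the average comparison 0 genes passed without either CTRL miR array, and 2 passed without SHP2 miR1 replicate 2 or without SHP2 miR2 replicate 1. In the SHP2 miR1 comparison 3 passed without either SHP2 miR1 array, 4 without CTRL miR replicate 1 and 2 without CTRL miR replicate 2.

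For 14 of the 30 genes, all 4 SHP2 miR arrays lay on one side of both CTRL miR arrays, which held for 26.1% of all genes (13.6% lower and 12.6% higher). The 8 that were lower were HMGCS1, IDI1, SQLE, MSMO1, SC5D, ACLY, ME1 and ACACA. The 6 that were higher were MVK, PMVK, TM7SF2, ACSS2, SCD and LPIN1. Genes on either side came from both branches, as the plot of every gene on every array shows.

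**Figure D1:**
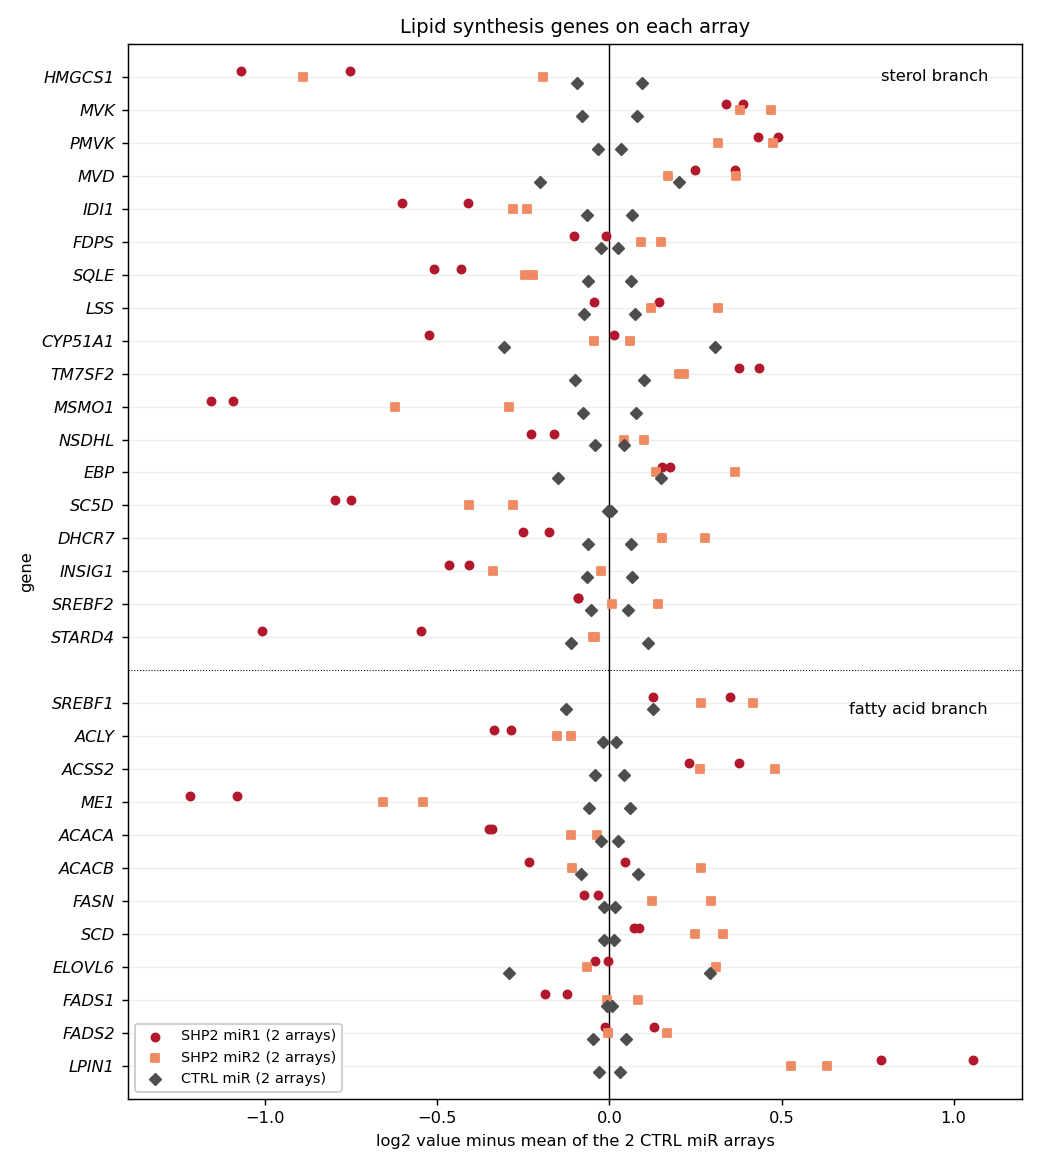
Log2 value of each of the 30 genes on each array minus the mean of both CTRL miR arrays (horizontal axis), with SHP2 miR1 (circles), SHP2 miR2 (squares) and CTRL miR (diamonds), 2 arrays each. MSMO1, SC5D and ME1 lie left of the controls and LPIN1 right of them on all 4 SHP2 miR arrays, while FDPS lies around 0. FASN lies right of the controls with SHP2 miR2 (0.30 and 0.12) and slightly left of them with SHP2 miR1 (-0.03 and -0.07).

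Among the 6 listed and measured enzymes from HMG-CoA synthase to farnesyl diphosphate synthase, HMGCS1, which makes HMG-CoA, was the one that passed a comparison. HMGCS1 had 7.06 and 7.38 in SHP2 miR1 cells and 7.24 and 7.94 in SHP2 miR2 cells, against 8.04 and 8.23 in CTRL miR cells. All 4 SHP2 miR arrays were below both controls, with SHP2 miR2 replicate 2 close to them. The difference was -0.91 with SHP2 miR1 (SE 0.23, 1.88-fold lower, limma adjusted p = 0.0446). For the average of both it was -0.73 (95% interval -1.18 to -0.27, limma adjusted p = 0.0849), and it ran from -0.90 to -0.55 with an array left out. The SHP2 miR1 call was lost without either SHP2 miR1 array or either CTRL miR array, with adjusted p up to 0.253, and with quantile normalization (adjusted p = 0.0725).

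The next enzymes of this stretch had values above the controls. MVK, the mevalonate kinase, had 7.56 and 7.50 in SHP2 miR1 cells and 7.64 and 7.55 in SHP2 miR2 cells, against 7.25 and 7.09 in CTRL miR cells (average difference 0.39, limma adjusted p = 0.130). PMVK, which adds the next phosphate, had 8.31 and 8.37 in SHP2 miR1 cells and 8.20 and 8.36 in SHP2 miR2 cells, against 7.85 and 7.92 in CTRL miR cells (0.43, limma adjusted p = 0.104). Both were above the controls on all 4 SHP2 miR arrays without passing the threshold. MVD, the decarboxylase that follows, differed by 0.29 (limma adjusted p = 0.323) and its groups overlapped. IDI1, the isopentenyl diphosphate isomerase, was below the controls on all 4 arrays, at 6.46 and 6.26 in SHP2 miR1 cells and 6.59 and 6.63 in SHP2 miR2 cells, against 6.80 and 6.93 in CTRL miR cells (-0.38, limma adjusted p = 0.145). FDPS, the farnesyl diphosphate synthase, differed by 0.03 (limma adjusted p = 0.914), a value that turned negative when arrays were centred on their medians.

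Of the 9 listed and measured enzymes from squalene to cholesterol, MSMO1 and SC5D fell. MSMO1 oxidises the methyl groups that are removed from lanosterol-derived sterols. It had 8.57 and 8.63 in SHP2 miR1 cells and 9.10 and 9.43 in SHP2 miR2 cells, against 9.80 and 9.65 in CTRL miR cells. The groups were ordered with SHP2 miR1 lowest and SHP2 miR2 between it and the controls, with no overlap. The average difference was -0.79 (SE 0.14, 1.73-fold lower, limma adjusted p = 0.0180), and with SHP2 miR1 it was -1.13 (SE 0.17, 2.18-fold lower, limma adjusted p = 0.00529). With SHP2 miR2 it was -0.46 (limma adjusted p = 0.352). The average call was lost without SHP2 miR2 replicate 1 (adjusted p = 0.0521), CTRL miR replicate 1 (0.106) or CTRL miR replicate 2 (0.131), while the SHP2 miR1 call held with any 1 array left out.

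SC5D, a desaturase late in the chain, had 6.59 and 6.54 in SHP2 miR1 cells and 6.93 and 7.06 in SHP2 miR2 cells, against 7.34 and 7.34 in CTRL miR cells. Its groups kept the same order as above, again without overlap. The average difference was -0.56 (SE 0.13, 1.47-fold lower, limma adjusted p = 0.0421) and the SHP2 miR1 difference was -0.77 (limma adjusted p = 0.0152). The average call was lost with any 1 array left out (adjusted p 0.0691 to 0.271), with quantile normalization (0.0794) and with array weights (0.0513). The SHP2 miR1 call was lost without either SHP2 miR1 array or CTRL miR replicate 2 (up to 0.107).

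SQLE, the squalene epoxidase, was below the controls on all 4 arrays, with 9.16 and 9.24 in SHP2 miR1 cells and 9.45 and 9.43 in SHP2 miR2 cells, against 9.61 and 9.74 in CTRL miR cells. Its average difference of -0.35 did not pass (limma adjusted p = 0.160). TM7SF2, a sterol reductase, was above them on all 4, by 0.31 (limma adjusted p = 0.222). LSS, which closes the rings of lanosterol, differed by 0.13, the lanosterol demethylase CYP51A1 by -0.12 and the isomerase EBP by 0.21, all with overlap between SHP2 miR and CTRL miR arrays. The decarboxylating dehydrogenase NSDHL (-0.06) and DHCR7 had both SHP2 miR1 arrays below the controls and both SHP2 miR2 arrays above them, though SHP2 miR2 replicate 1 and CTRL miR replicate 1 were level for NSDHL at 8.01. DHCR7, which makes the last reduction to cholesterol, differed by 0.00 on average, with 9.28 and 9.35 in SHP2 miR1 cells and 9.81 and 9.68 in SHP2 miR2 cells, against 9.59 and 9.47 in CTRL miR cells. The signs of CYP51A1, NSDHL and DHCR7 turned under other settings. Values of consecutive steps lay on both sides of the controls.

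Among the sterol regulators, STARD4, a carrier that moves sterol between membranes, passed in the SHP2 miR1 comparison, where it was lower. STARD4 had 6.30 and 6.76 in SHP2 miR1 cells and 7.26 and 7.26 in SHP2 miR2 cells, against 7.19 and 7.42 in CTRL miR cells. Both SHP2 miR1 arrays were below the other 4, and the SHP2 miR2 arrays lay among the controls. The SHP2 miR1 difference was -0.78 (SE 0.19, 1.71-fold lower, limma adjusted p = 0.0358), and the SHP2 miR2 difference was -0.05 (limma adjusted p = 0.954). The first was lost with any 1 array left out other than SHP2 miR1 replicate 2 (adjusted p up to 0.228), and with quantile normalization (0.0620).

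INSIG1, itself a sterol-repressed SREBP target, had 7.17 and 7.23 in SHP2 miR1 cells and 7.30 and 7.62 in SHP2 miR2 cells, against 7.58 and 7.71 in CTRL miR cells. SHP2 miR1 arrays were lowest and SHP2 miR2 overlapped the controls; the average difference of -0.31 did not pass (95% interval -0.63 to 0.01, limma adjusted p = 0.250). SREBF2, the source of SREBP-2, had 8.34 and 8.34 in SHP2 miR1 cells and 8.58 and 8.44 in SHP2 miR2 cells, against 8.49 and 8.38 in CTRL miR cells. SHP2 miR2 overlapped the controls and SHP2 miR1 lay just below both, and the average difference was -0.01 (95% interval -0.30 to 0.28, limma adjusted p = 0.982), with a sign that turned under quantile normalization.

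The windows before the start sites of the sterol genes that passed a comparison are shown with that of ME1, since a CCAAT box, the binding sequence of NF-Y, which works with SREBPs at many sterol promoters, is a feature of most sterol promoters here and not of the ME1 window. Each is the 250 bases before the gene's first listed start, 5′ to 3′ on the gene's strand (RefSeq, GRCh38.p14). Capitals mark matches to CCAAT (read as ATTGG on the other strand) and, in SC5D, to the E-box CACGTG.
MSMO1, chr4:165327419-165327668, plus strand: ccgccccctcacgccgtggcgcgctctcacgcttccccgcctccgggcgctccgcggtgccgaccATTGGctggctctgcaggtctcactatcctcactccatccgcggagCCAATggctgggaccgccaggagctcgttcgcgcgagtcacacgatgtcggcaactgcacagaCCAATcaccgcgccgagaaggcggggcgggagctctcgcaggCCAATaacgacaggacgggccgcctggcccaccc
SC5D, chr11:121292521-121292770, plus strand: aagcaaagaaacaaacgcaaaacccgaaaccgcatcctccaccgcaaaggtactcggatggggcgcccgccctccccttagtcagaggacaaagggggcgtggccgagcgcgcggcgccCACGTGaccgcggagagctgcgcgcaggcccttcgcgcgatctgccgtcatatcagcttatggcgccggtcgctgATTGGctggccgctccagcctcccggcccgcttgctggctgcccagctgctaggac
HMGCS1, chr5:43313413-43313662, minus strand: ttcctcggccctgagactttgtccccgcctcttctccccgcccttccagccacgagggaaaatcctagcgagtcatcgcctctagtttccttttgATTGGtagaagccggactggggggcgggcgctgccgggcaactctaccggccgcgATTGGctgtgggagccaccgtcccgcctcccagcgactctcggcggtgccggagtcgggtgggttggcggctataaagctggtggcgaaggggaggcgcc
STARD4, chr5:111512536-111512785, minus strand: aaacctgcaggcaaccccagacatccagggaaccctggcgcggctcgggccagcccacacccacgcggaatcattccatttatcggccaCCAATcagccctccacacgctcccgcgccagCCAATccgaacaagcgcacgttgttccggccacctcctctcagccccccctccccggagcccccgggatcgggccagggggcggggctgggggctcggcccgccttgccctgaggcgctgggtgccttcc
ME1, chr6:83431052-83431301, minus strand: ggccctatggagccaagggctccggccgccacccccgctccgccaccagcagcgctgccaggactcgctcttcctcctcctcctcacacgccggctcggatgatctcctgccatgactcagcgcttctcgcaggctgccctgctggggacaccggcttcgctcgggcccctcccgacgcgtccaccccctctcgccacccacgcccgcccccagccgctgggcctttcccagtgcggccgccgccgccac

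Windows of 250 bases before to 50 after the start were matched for 28 of the 30 genes, and SQLE and FASN had no window. CCAAT, on either strand, was in 14 of 17 sterol windows and in 3 of 11 fatty acid windows, where 35.7% of 27305 windows held it. MSMO1 had 4 matches, HMGCS1 and STARD4 had 2 each and SC5D had 1. MVK and NSDHL, which did not pass, had 5 each. MVK was above the controls on every SHP2 miR array and NSDHL overlapped them, so genes with matches were not all below the controls. The 3 fatty acid genes with a match were ACLY, ACSS2 and SCD. The windows of LPIN1, which was higher, and of ME1, which was lower, both lacked a match. The LPIN1 window, chr2:11746382-11746681, lies inside the gene's span of chr2:11677544-11827409, so it is not at the gene's outermost start. With any listed start of a gene counted, the match was in 15 of 17 sterol genes and 6 of 11 fatty acid genes, where 39.7% of genes held it. The sterol regulatory element written TCACNCCAC was in 1 of 17 sterol windows, that of SREBF2, and in 0 of 11 fatty acid windows, where 1.15% of all windows held it. Only this spelling was searched, so elements with other letters were not counted. CACGTG was in 3 of 17 sterol windows (LSS, SC5D and INSIG1) and 0 of 11 fatty acid windows, where 7.43% of all held it. Matches of different motifs overlapped in 0 of the 28 windows.

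In the fatty acid branch, ME1 fell and LPIN1 rose. ME1, the cytosolic malic enzyme that makes NADPH, had 7.55 and 7.68 in SHP2 miR1 cells and 8.22 and 8.11 in SHP2 miR2 cells, against 8.71 and 8.82 in CTRL miR cells. The 3 groups were separate, with SHP2 miR1 lowest. The average difference was -0.88 (SE 0.13, 1.83-fold lower, limma adjusted p = 0.00763), and with SHP2 miR1 it was -1.15 (SE 0.15, 2.22-fold lower, limma adjusted p = 0.00282). With SHP2 miR2 it was -0.60 (limma adjusted p = 0.165). The average call was lost without CTRL miR replicate 1 (adjusted p = 0.0551) or 2 (0.113), and the SHP2 miR1 call held with any 1 array left out.

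LPIN1, which makes diacylglycerol from phosphatidate and is itself induced by SREBPs, had 8.64 and 8.91 in SHP2 miR1 cells and 8.38 and 8.49 in SHP2 miR2 cells, against 7.82 and 7.89 in CTRL miR cells. It was the mirror image in order, with SHP2 miR1 highest, SHP2 miR2 between and CTRL miR lowest. The average difference was 0.75 (SE 0.14, 1.68-fold higher, limma adjusted p = 0.0180), and with SHP2 miR1 it was 0.92 (SE 0.16, 1.89-fold higher, limma adjusted p = 0.0107). The average call was lost without SHP2 miR1 replicate 2, SHP2 miR2 replicate 2 or either CTRL miR array (adjusted p up to 0.149), and the SHP2 miR1 call without SHP2 miR1 replicate 2 (0.0742) or CTRL miR replicate 2 (0.0787).

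The fatty acid synthesis machinery itself did not pass. FASN, the fatty acid synthase, had 8.71 and 8.67 in SHP2 miR1 cells and 9.04 and 8.86 in SHP2 miR2 cells, against 8.76 and 8.73 in CTRL miR cells. The SHP2 miR2 arrays were highest and SHP2 miR1 lowest, and the average difference was 0.08 (95% interval -0.21 to 0.37, limma adjusted p = 0.772). SCD, the stearoyl-CoA desaturase, had 10.11 and 10.12 in SHP2 miR1 cells and 10.36 and 10.28 in SHP2 miR2 cells, against 10.05 and 10.02 in CTRL miR cells. All 4 SHP2 miR arrays were above the controls, by a difference of 0.18 that did not pass (95% interval -0.10 to 0.46, limma adjusted p = 0.434). SREBF1, the source of SREBP-1, had 6.80 and 7.03 in SHP2 miR1 cells and 7.09 and 6.94 in SHP2 miR2 cells, against 6.80 and 6.55 in CTRL miR cells. SHP2 miR1 replicate 1 and CTRL miR replicate 1 were nearly level, and the difference of 0.29 did not pass (95% interval -0.03 to 0.62, limma adjusted p = 0.286).

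ACLY, which makes cytosolic acetyl-CoA from citrate, and ACSS2, which makes it from acetate, lay on opposite sides of the controls on all 4 SHP2 miR arrays. Their average differences were -0.22 for ACLY (limma adjusted p = 0.343) and 0.34 for ACSS2 (limma adjusted p = 0.199). The carboxylase ACACA was below the controls on all 4 arrays (-0.21, limma adjusted p = 0.369). Its mitochondrial counterpart ACACB had the lowest mean of the 30 genes (4.80, just over the 40th percentile of probe sets) and differed by -0.01. The elongase ELOVL6 differed by 0.05, and the desaturases FADS1 and FADS2 by -0.06 and 0.07. The signs of ACACB, ELOVL6 and FADS1 turned under other settings.

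**Figure D2:**
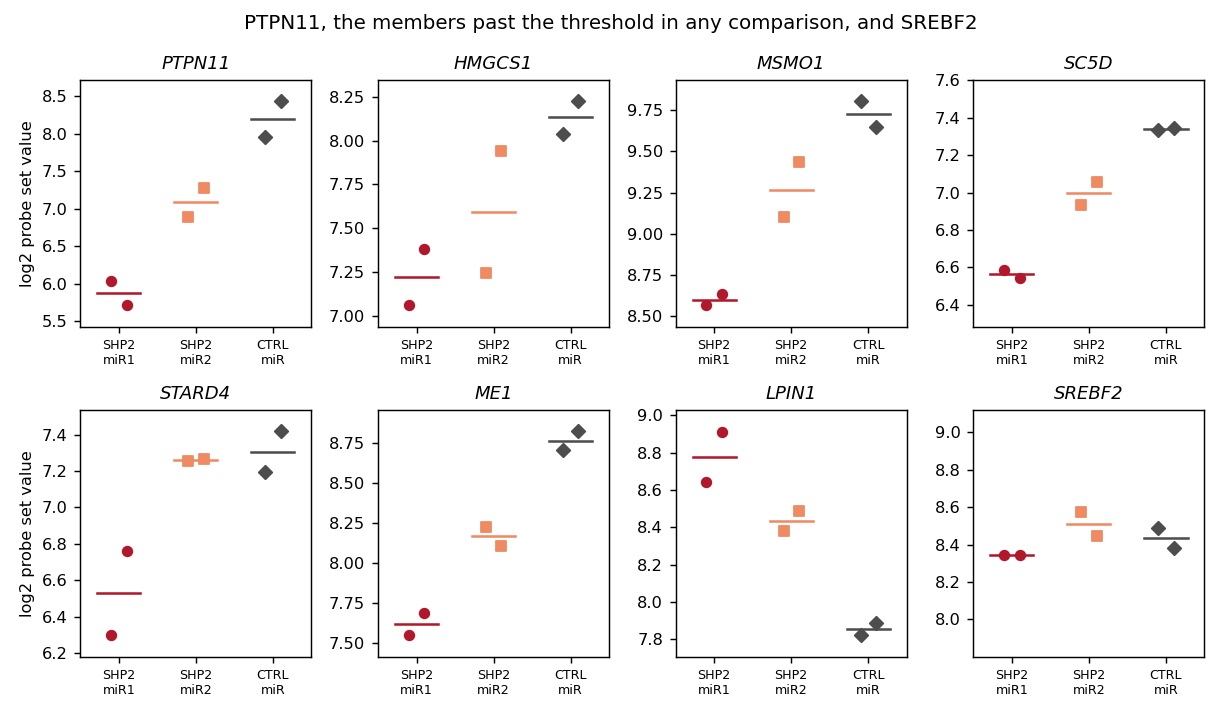
Log2 probe set values (vertical axes, each with its own range) of PTPN11, the 6 genes past the threshold in any comparison and SREBF2, with points for the 2 arrays of each group and a line at their mean. SHP2 miR2 lies between SHP2 miR1 and CTRL miR for PTPN11, MSMO1, SC5D, ME1 and LPIN1, lies among the controls for STARD4, and overlaps the controls for SREBF2.

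The branches were set side by side by counts and medians, without a test. In the average comparison 2 of 18 sterol genes passed, both lower, and 2 of 12 fatty acid genes, 1 in each direction, where 2.67% of all genes were lower and 1.53% higher. In the SHP2 miR1 comparison 4 of 18 sterol genes passed, all lower, and 2 of 12 fatty acid genes, 1 in each direction, where 5.94% of all genes were lower and 2.66% higher. The higher fatty acid gene in both was LPIN1, a glycerolipid enzyme. With enzymes only, regulators, STARD4 and LPIN1 were left out. Then 2 of 15 sterol and 1 of 10 fatty acid genes passed on average, all lower. With SHP2 miR1 these were 3 of 15 and 1 of 10, again all lower. The median difference for the average comparison was -0.03 in the sterol branch and 0.06 in the fatty acid branch, against 0.02 over all genes and -0.03 over the 13047 genes above the 40th percentile of probe sets. Members lay further from 0 in the sterol branch, where the median absolute difference was 0.308, against 0.197 in the fatty acid branch, 0.181 over all genes and 0.194 over those above that percentile. Within the sterol branch the 6 mevalonate enzymes had a median of 0.16 and the 9 enzymes after squalene -0.06.

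The branch medians were also followed array by array. Relative to the mean of the controls, the median sterol gene was at -0.21 and -0.14 on the SHP2 miR1 arrays and at 0.07 and 0.08 on the SHP2 miR2 arrays, against -0.01 and 0.01 on the CTRL miR arrays. The median fatty acid gene was at -0.01 and -0.06 on the SHP2 miR1 arrays and at 0.22 and 0.06 on the SHP2 miR2 arrays, against -0.02 and 0.02 on the CTRL miR arrays. The sterol median was below the controls with SHP2 miR1 and the fatty acid median was within 0.06 of them. These medians move with the scaling: for SHP2 miR1 minus CTRL miR the sterol median was -0.20 as deposited, -0.08 after quantile normalization and -0.29 after centring, and the fatty acid median was -0.04, 0.08 and -0.12. The part of scaling in them was not tested.

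Gene length was a further feature that differed between the branches and moved with the calls over all genes. Sterol genes spanned a median of 19.3 kb of the genome and fatty acid genes 58.3 kb, against 24.5 kb for all genes. Over all genes, those called lower in the average comparison spanned a median of 67.9 kb and those called higher 18.9 kb. Of the genes called here, MSMO1 and SC5D spanned 15.5 and 20.6 kb and were lower, ME1 spanned 221 kb and was lower, and LPIN1 spanned 150 kb and was higher. The part of length in these differences was not tested.

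**Figure D3:**
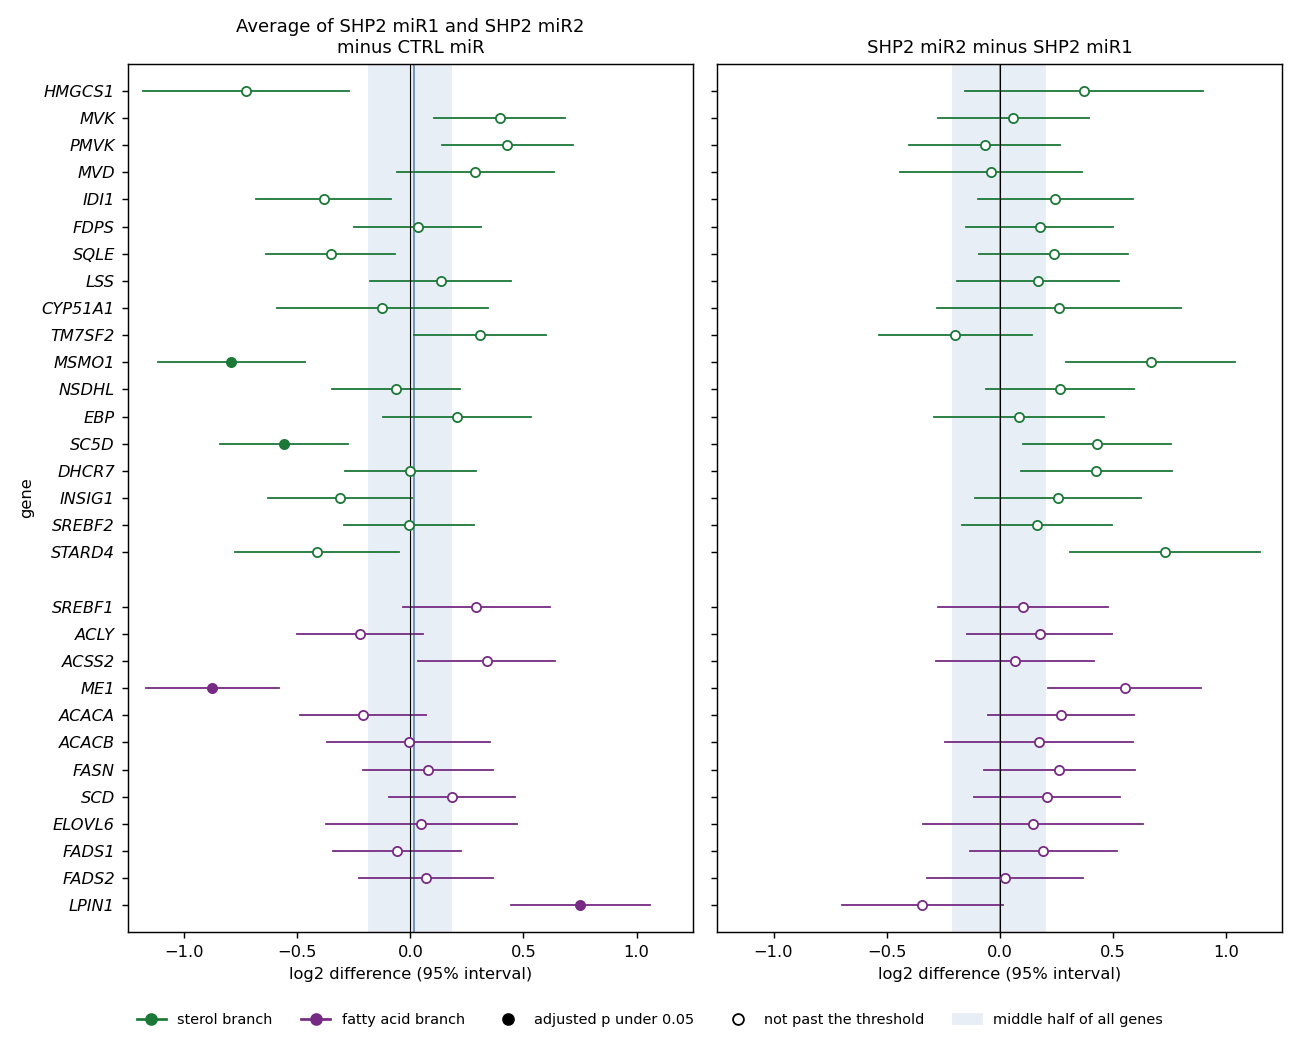
Log2 difference of each of the 30 genes with its 95% interval, for the average of SHP2 miR1 and SHP2 miR2 minus CTRL miR (left) and for SHP2 miR2 minus SHP2 miR1 (right). Filled points passed an adjusted p of 0.05, and the shaded band is the interquartile range of all genes. Filled points are MSMO1, SC5D, ME1 and LPIN1 on the left and none on the right, where 26 of 30 points lie above 0.

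SHP2 miR2 was then compared with SHP2 miR1 directly. Of the 30 genes 26 had a higher mean with SHP2 miR2, 15 of 18 sterol and 11 of 12 fatty acid genes, where 9196 of 18377 genes did, and 55.6% of the 13047 genes above the 40th percentile of probe sets, as all 30 were. The count was 23 of 30 after quantile normalization, beside 49.0% of all genes, and 28 of 30 after centring, beside 61.1%. Of the single differences 0 of 30 passed in the limma fit, where 0.190% of all genes did (0.0381% lower and 0.152% higher), 5 had an unadjusted p under 0.05, beside 3245 of 18377 genes, and 4 passed with a mean-variance trend. The largest were 0.73 for STARD4 (95% interval 0.31 to 1.15, limma adjusted p = 0.129), 0.67 for MSMO1 (0.29 to 1.04, limma adjusted p = 0.127) and 0.55 for ME1 (limma adjusted p = 0.141). PTPN11 itself was higher with SHP2 miR2 than with SHP2 miR1 by 1.21 (95% interval 0.73 to 1.70, limma adjusted p = 0.0645). The 4 genes with a lower mean with SHP2 miR2 were LPIN1 (-0.34), TM7SF2 (-0.20), PMVK (-0.07) and MVD (-0.04).

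Other genes of sterol and fatty acid handling, 58 measured of 68 listed, were read for context. In the average comparison 1 of 25 sterol handling genes rose and 3 fell, and 2 of 33 fatty acid handling genes rose and 2 fell, where 1.53% of all genes were higher and 2.67% lower. With SHP2 miR1 alone 1 of 25 sterol handling genes rose and 4 fell, and 3 of 33 fatty acid handling genes rose and 4 fell. Of all genes 2.66% were higher and 5.94% lower there. Passing there and not on average were NPC1 (-0.69, limma adjusted p = 0.0305), ELOVL7 (-0.93, limma adjusted p = 0.0186), GPAM (-0.71, limma adjusted p = 0.0452) and ACSL1 (0.60, limma adjusted p = 0.0382). With SHP2 miR2 alone VLDLR fell and ACSL5 rose, and no other of the 58 passed, where 0.370% of all genes did.

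VLDLR, a receptor that takes up lipoproteins, had 4.66 and 4.86 in SHP2 miR1 cells and 5.36 and 5.53 in SHP2 miR2 cells, against 6.43 and 6.65 in CTRL miR cells (average difference -1.44, SE 0.14, limma adjusted p = 0.00112). SOAT1, which esterifies cholesterol for storage, had 6.72 and 6.83 in SHP2 miR1 cells and 7.42 and 7.61 in SHP2 miR2 cells, against 7.83 and 7.90 in CTRL miR cells (-0.72, limma adjusted p = 0.0179). INSIG2, the second INSIG protein, had 6.06 and 6.57 in SHP2 miR1 cells and 6.67 and 6.89 in SHP2 miR2 cells, against 7.33 and 7.54 in CTRL miR cells (-0.89, limma adjusted p = 0.0239). These 3 fell, and none had overlapping SHP2 miR and CTRL miR arrays. NR1H3, the sterol-sensing nuclear receptor LXR-alpha, rose, with 6.68 and 6.69 in SHP2 miR1 cells and 6.16 and 6.51 in SHP2 miR2 cells, against 5.70 and 5.75 in CTRL miR cells (0.78, limma adjusted p = 0.0178).

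On the fatty acid side ACSL5, which activates long-chain fatty acids to their CoA esters, had 6.58 and 6.69 in SHP2 miR1 cells and 6.21 and 6.33 in SHP2 miR2 cells, against 4.85 and 4.87 in CTRL miR cells. It rose by 1.59 on average (SE 0.13, 3.02-fold higher, limma adjusted p = 0.000438), and no gene of either branch above differed by as much. ELOVL4, an elongase of very long chains, had 4.75 and 4.97 in SHP2 miR1 cells and 6.08 and 5.98 in SHP2 miR2 cells, against 6.24 and 6.59 in CTRL miR cells (-0.97, limma adjusted p = 0.00888). The CTRL miR values of ACSL5 and the SHP2 miR1 values of VLDLR and ELOVL4 lay near the 40th percentile of probe sets (4.76). Whether this limited the size of their differences was not tested. LPIN2, a relative of LPIN1, fell where LPIN1 rose, with 5.71 and 5.76 in SHP2 miR1 cells and 6.18 and 6.11 in SHP2 miR2 cells, against 6.60 and 6.47 in CTRL miR cells (-0.59, limma adjusted p = 0.0349). HACD2, a dehydratase of fatty acid elongation, rose by 0.65 (limma adjusted p = 0.0491), with 8.63 and 8.54 in SHP2 miR1 cells and 8.24 and 8.27 in SHP2 miR2 cells, against 7.54 and 7.99 in CTRL miR cells. The VLDLR and ACSL5 average calls held with any 1 array left out (adjusted p at most 0.0302 and 0.0170), and those of LPIN2 and HACD2 were lost with any. HACD2 was also lost with centring (0.0671), robust prior (0.0511), array weights (0.0562), a replicate block (0.0569) and the probe set of highest variance (0.0511). LPIN2 was also lost with quantile normalization (0.0541). The other 4 were lost without CTRL miR replicate 2 (adjusted p 0.133 to 0.267). NR1H3, SOAT1 and INSIG2 were also lost without CTRL miR replicate 1, SOAT1 and INSIG2 without SHP2 miR2 replicate 1, and SOAT1 without SHP2 miR1 replicate 1 (0.0538 to 0.0962). For SHP2 miR2 alone the VLDLR and ACSL5 calls were lost without either SHP2 miR2 array or either CTRL miR array, with adjusted p up to 0.243 for VLDLR and 0.114 for ACSL5.

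**Figure D4:**
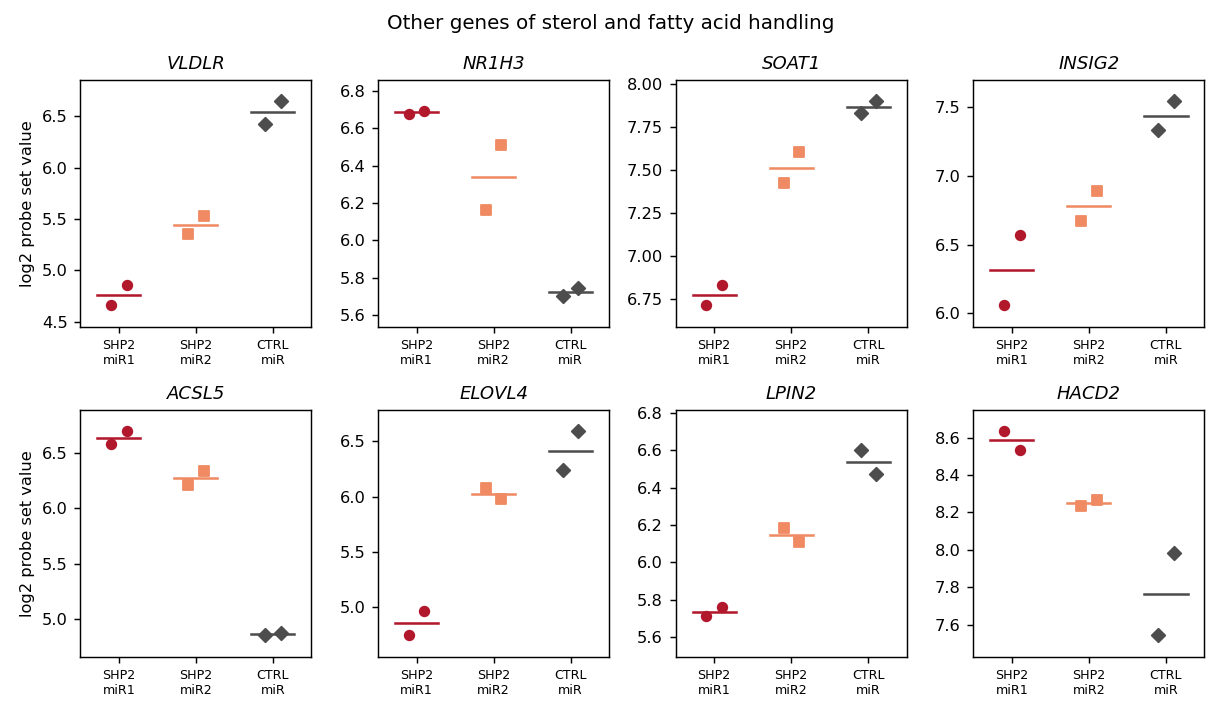
Log2 probe set values (vertical axes, each with its own range) of the 8 genes of sterol and fatty acid handling that passed on average. Points are the 2 arrays of each group, with a line at their mean. VLDLR, SOAT1, INSIG2, ELOVL4 and LPIN2 are lower and NR1H3, ACSL5 and HACD2 higher on all 4 SHP2 miR arrays than on both CTRL miR arrays.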

How the data were processed

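RNA of 6 samples, 2 for each of SHP2 miR1, SHP2 miR2 and CTRL miR, was hybridised to HuGene-1_0-st-v1 arrays, and groups and replicate numbers come from the sample titles. The authors deposited 1 log2 value per probe set and array; base 2 was inferred from the range. The submitters' processing notes name R 2.10 and oligo 1.8. How background, normalization and summary were done, and on which build, is not given in the sources used here.

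The platform annotation gave 19310 of 28869 probe sets 1 symbol, 1752 several and 7807 none. Of the 19310, 19279 matched RefSeq (GRCh38.p14) by gene identifier. The brightest probe set of each gene was kept, which left 18377 genes. A means model of the 3 groups was fitted in R 4.3.3 with lmFit and eBayes of limma 3.58.1 (residual degrees of freedom 3, prior 6.10). Tests were two-sided, with Benjamini-Hochberg adjustment over all genes. The fit was tested on simulated data. The number of arrays limits the precision.

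The members, gene lists and branches were chosen with earlier results of these data known. All 32 members are accounted for. Values on every array are given for members past the threshold in any comparison and for SREBF1, SREBF2, INSIG1, HMGCS1, FASN and SCD. Of the other handling genes, up to 4 a branch were named by smallest p, and others appear as examples of groups that did not overlap. ERBB2, ERBB3, CD14, CD68, KDR, NPC1, ELOVL7, GPAM and ACSL1 were named after their values were seen. Alternatives were another prior, dim genes left out, 2 scalings, other probe set rules, array weights, only the groups compared, a replicate block, enzymes only and each array left out, where the lone array of a group was assumed to vary like the others.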

Additional observations from a re-analysis of the deposited data

Results flagged for a closer look

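The difference between SHP2 miR2 and SHP2 miR1 passed the threshold for 1 of the lipid genes examined, ELOVL4, an elongase outside the 30 synthesis genes. ELOVL4 was higher with SHP2 miR2 than with SHP2 miR1 by 1.17 log2 units (95% interval 0.78 to 1.56, limma adjusted p = 0.0421), and both SHP2 miR2 arrays were above both SHP2 miR1 arrays. Its SHP2 miR1 values, 4.75 and 4.97, lay near the 40th percentile of probe sets (4.76). The call was lost with any 1 array left out (adjusted p 0.0789 to 0.217), with only both groups fitted (0.0789) and with a replicate block (0.0751). The groups of 2 arrays were too small to look for an outlying array.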

How the results depend on the processing

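A mean-variance trend raised the calls among the 30 genes to 7 for the average comparison, 10 for SHP2 miR1, 3 for SHP2 miR2 and 4 for SHP2 miR2 minus SHP2 miR1, and those over all genes to 9.76%, 15.2%, 2.00% and 2.43%. Leaving out each array gave 0 to 3 calls for the average and 2 to 5 for SHP2 miR1. The average sterol median was 0.048 with quantile normalization, -0.073 with centring, 0.00052 with enzymes only and -0.062 to 0.00025 with an array left out. For SHP2 miR1 it was -0.078, -0.29 and, with an array left out, -0.21 to -0.14, and the fatty acid median was 0.077 with quantile normalization and -0.12 with centring. For SHP2 miR2 the sterol median was 0.11 with quantile normalization and 0.12 with enzymes only, and the fatty acid median 0.059 to 0.22 with an array left out. For SHP2 miR2 minus SHP2 miR1 the sterol median was 0.15 with quantile normalization, 0.33 with centring and 0.21 to 0.25 with an array left out, and the fatty acid median was 0.10 and 0.26 under both scalings. Average differences near 0 turned sign: with quantile normalization NSDHL was 0.031, SREBF2 0.087 and FADS1 0.035, and with centring FDPS was -0.0054 and DHCR7 -0.037. With an array left out, CYP51A1 ran from -0.43 to 0.18, DHCR7 from -0.062 to 0.063, SREBF2 from -0.061 to 0.045, ACACB from -0.10 to 0.086 and ELOVL6 from -0.24 to 0.34. STARD4 with SHP2 miR2 was 0.0036 with quantile normalization and -0.16 to 0.067 with an array left out. The cause of these changes was not tested.

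Arrays with the same replicate number deviated together weakly (correlations 0.01, 0.07 and 0.14 between pairs of groups; with 2 arrays a group the value for the other number is its negative by construction), and the labels do not tie the numbers. With a replicate block 4 genes passed in the average comparison, with HMGCS1 (adjusted p = 0.0400) in place of SC5D (0.0510), 6 for SHP2 miR1, 0 for SHP2 miR2 and 0 for the direct comparison, and 817 genes in all passed on average, where 771 did without it. Over single genes and their alternatives, 1178 values kept direction and side of the threshold, 91 no longer passed, 17 newly passed and 19 turned sign. With 2 arrays a group, small differences were not detectable.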
